A study of Mus musculus with 4 samples.

Results

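Coch, Slc15a2, Camk2b and Car2 are 4 genes measured in a droplet-based single-cell RNA-sequencing dataset of CD45+ cells sorted from mouse livers. They were picked by their large ratios between libraries in PD-1+ CD8 T cells of these same data. Their ratios in those cells are therefore given as a description, with no test, and nothing is supported with them. The dataset holds 4 libraries made with 10x Genomics 5′ chemistry, 1 per group, and all donors were female C57BL/6 mice. WT, miR-146a-/- and DKO mice, the last lacking both miR-146a and Ccl5 (miR-146a-/- Ccl5-/-), received 25 mg/kg diethylnitrosamine (DEN) by intraperitoneal injection on day 14 of life. From weaning on day 21 they were fed a choline-deficient diet with 60% fat (CDHFD), and they were 36 weeks old at harvest. The remaining group was young WT mice of about 8 weeks with no treatment. Both knockouts were in the whole body, and the sources used here do not state how many mice went into a library. The ratio of DEN-CDHFD–treated WT over young WT (WT over young) follows age, DEN and diet at the same time, and these cannot be told apart. The ratio of miR-146a-/- over WT addresses the loss of the microRNA, and the ratio of DKO over miR-146a-/- addresses the added loss of Ccl5.

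CD8 T cells that meet antigen repeatedly keep the inhibitory receptor PD-1 (Pdcd1) on their surface, and in aged or inflamed liver such cells build up as large clones that share an antigen receptor. miR-146a is a microRNA that lowers NF-κB signaling by repressing the signaling proteins Traf6 and Irak1. Ccl5 is a chemokine that CD8 T and NK cells make in large amounts. The proteins encoded by the genes described here have unrelated jobs. Cochlin (Coch) is a secreted protein with an LCCL domain, best known from the extracellular matrix of the inner ear. PEPT2 (Slc15a2) is a proton-coupled transporter of dipeptides and tripeptides in the cell membrane. Carbonic anhydrase II (Car2) is a cytosolic enzyme that interconverts CO2 and bicarbonate and is abundant in red cells and osteoclasts. CaMKIIβ (Camk2b) is a subunit of a calcium- and calmodulin-dependent kinase, best known from neurons, where it also binds actin.

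The mature strand of the deleted microRNA is shown because its seed is what pairs with target transcripts. RefSeq places miR-146a-5p at chr11:43374435-43374456 on the minus strand of GRCm38.p6, and the capitals mark the seed, bases 2 to 8.
miR-146a-5p: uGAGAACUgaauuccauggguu
None of the 4 genes has a match of 7 bases (AGTTCTC or GTTCTCA), or of the 6 bases these share, in the annotated 3′ UTR of the transcript searched. A single transcript was searched per gene, where Coch and Car2 have 2 coding transcripts each, Slc15a2 has 4 and Camk2b has 10. These UTRs are 739 bases long in Coch, 1601 in Slc15a2, 2184 in Camk2b and 680 in Car2. For comparison, 18.2% of 20846 genes with an annotated 3′ UTR hold such a match of 7 bases, and 29.8% hold the shared 6. The absence of these letters says only that they are not in these windows.

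Ccl5 was at 12544 counts per 1000000 UMIs (CPM) in kept cells of WT and at 12496 CPM in miR-146a-/-. It was at 6174 CPM in young WT and at 65.4 CPM in DKO, so the library labelled DKO was the low one. miR-146a itself has no row in the count tables, and its loss was not checked here. The libraries held 10985 cells and 90756272 unique molecular identifiers (UMIs) in young WT, 9120 cells and 103165826 UMIs in WT, 8393 cells and 88706063 UMIs in miR-146a-/-, and 10623 cells and 103147246 UMIs in DKO. Between 109 and 150 cell barcodes were found in both libraries of a pair, which is 1.08% to 1.64% of a library. Among PD-1+ CD8 T cells, 10 barcodes in young WT, 47 in WT, 64 for miR-146a-/- and 45 for DKO also occurred in another library. Without them, each of the 16 ratios given below for PD-1+ CD8 T cells was inside its own counting interval.

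After limits of 600 to 6000 detected genes and at most 5% mitochondrial UMIs, 36286 of 39121 cells were placed in 22 classes by marker UMIs. A PD-1+ CD8 T cell had at least 2 UMIs of Cd3d, Cd3e and Cd3g together, at least 1 of Cd8a or Cd8b1, at least 1 of Pdcd1, none of Cd4 or Foxp3, and few of B-cell and myeloid markers. This gate held 357 cells in young WT (3.47% of kept cells), 1275 in WT (15.3%), 1507 for miR-146a-/- (19.3%) and 1261 for DKO (12.8%). Gzmk, Tox, Lag3 and Nkg7, which the gate does not list, were each highest in this class among all classes, which matched its name. Cd8a and Cd8b1 were highest there too, but the gate asks for them, so their order says nothing about the name. Cells of a gate defined by 1 UMI of Pdcd1 border on the PD-1- non-naive CD8 T cells, whose values are given as well. Intervals in brackets are exact 95% limits, Poisson for CPM, binomial for shares and conditional for log2 ratios, and they cover counting error only. With 1 library per group, no difference below has a replicate check. Shares of cells with a UMI were read after each cell was thinned to 2000 UMIs, which left out 6 shallower PD-1+ CD8 T cells in young WT, 14 in WT, 11 for miR-146a-/- and 7 for DKO.

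Coch in PD-1+ CD8 T cells was at 2.44 CPM in young WT [0.981 to 5.03], 331 CPM in WT [320.2 to 343], 50.2 CPM for miR-146a-/- [46.1 to 54.5] and 58.8 CPM for DKO [53.8 to 64.1]. The WT library stood alone at the top and young WT held only 7 UMIs, while both knockout libraries lay between them. The share of cells with a UMI was 0.285% [0.00721 to 1.58], 35.8% [33.2 to 38.6], 6.75% [5.53 to 8.14] and 8.13% [6.68 to 9.79] in the same order, and 1.12%, 57.1%, 12.8% and 14.9% before thinning. B cells, taken as a class with a low level here, held 1, 4, 1 and 0 Coch UMIs in the same order. They had 0 thinned cells with a UMI in all 4 libraries. At a floor of 3 counts these shares are 0.258%, 0.467%, 0.726% and 0.474%, which are not exact limits. Median depth was 6749, 6826, 6686 and 5876 UMIs in PD-1+ CD8 T cells and 5574.5, 6648, 6881 and 6336 UMIs in B cells. The Coch shares in the 3 DEN-CDHFD–treated libraries were thus above the B-cell level, and in young WT the share overlapped it. On the log2 scale the ratios were 6.99 for WT over young [6.04 to 8.4], -2.72 for miR-146a-/- over WT [-2.85 to -2.59], 0.23 for DKO over miR-146a-/- [0.05 to 0.40] and -2.49 for DKO over WT [-2.63 to -2.36]. With each cell counted at most at 1 UMI, the first of these was 5.52. Without the most used Trbv segment of each library, the ratio of DKO over miR-146a-/- turned to -1.09 [-1.38 to -0.81].

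Slc15a2 in the same cells was at 79.5 CPM in young WT [69.5 to 90.5], 193 CPM in WT [185 to 202], 27.6 CPM for miR-146a-/- [24.6 to 30.9] and 49.0 CPM for DKO [44.5 to 53.8]. Again WT was the high library, but young WT lay above both knockouts. Thinned shares were 15.1% [11.5 to 19.3], 30.7% [28.2 to 33.3], 3.68% [2.78 to 4.76] and 7.89% [6.46 to 9.53], and unthinned shares 30.8%, 63.4%, 9.95% and 18.1%. The log2 ratios were 1.28 for WT over young [1.09 to 1.49], -2.81 for miR-146a-/- over WT [-2.99 to -2.63], 0.83 for DKO over miR-146a-/- [0.61 to 1.04] and -1.98 for DKO over WT [-2.14 to -1.83]. B cells do not serve as background here, since 18.1%, 20.7%, 9.93% and 9.95% of them had a UMI after thinning. Plasmacytoid dendritic cells (pDC) had lower thinned shares, 6.16% [2.86 to 11.4], 3.53% [0.734 to 9.97], 3.05% [0.838 to 7.63] and 2.96% [0.813 to 7.41], at median depths of 12312, 12642, 13822 and 13763 UMIs. Against pDC, the PD-1+ CD8 share was higher in young WT and WT, and its interval overlapped that of pDC in both knockouts. By CPM, pDC had 34.2 in young WT, 38.4 in WT, 21.5 [15.4 to 29.3] for miR-146a-/- and 12 [7.61 to 18.0] for DKO, so the PD-1+ CD8 level was above pDC in DKO as well and overlapped it in miR-146a-/-. Yet pDC were not the lowest class of miR-146a-/-. There cDC1 had 8.37 CPM [5.37 to 12.5] and patrolling monocytes 13.5 CPM [10.8 to 16.7], and the PD-1+ CD8 level was above these.

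Car2 had its high library elsewhere, at 19.2 CPM in young WT [14.4 to 25.0], 49.4 CPM in WT [45.1 to 53.9], 147 CPM for miR-146a-/- [140.4 to 155] and 57.0 CPM for DKO [52.1 to 62.2]. WT and DKO lay close together, with miR-146a-/- well above and young WT below. Thinned shares were 3.42% [1.78 to 5.90], 7.53% [6.14 to 9.13], 19.3% [17.3 to 21.4] and 7.34% [5.95 to 8.92], and unthinned shares 9.80%, 19.4%, 37.0% and 16.2%. B cells had 3.43%, 1.24%, 0.726% and 1.11% after thinning, so the PD-1+ CD8 share was at the B-cell level in young WT and above it in the other 3. B cells were not the lowest class for Car2, since pDC had 1.10 CPM [0.133 to 3.98], 3.49, 0.538 and 3.66 CPM and B cells 17.5, 7.58, 5.64 and 16.1 CPM. Against pDC, the level in PD-1+ CD8 T cells was higher in every library. The log2 ratios were 1.35 for WT over young [0.96 to 1.79], 1.58 for miR-146a-/- over WT [1.43 to 1.72], -1.37 for DKO over miR-146a-/- [-1.52 to -1.23] and 0.21 for DKO over WT [0.02 to 0.39]. Under the 1-UMI limit per cell, the ratio of miR-146a-/- over WT was 1.03, and that of DKO over WT turned to -0.067. Without the most used Trbv segment of each library, the ratio of DKO over miR-146a-/- had an interval that covered no change. Those of WT over young and miR-146a-/- over WT were then under 2-fold (values given with the segments below).

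Camk2b was high in DKO, at 92.8 CPM [86.6 to 99.4], against 45.0 CPM in young WT [37.5 to 53.4], 39.9 CPM in WT [36.1 to 44.0] and 23.6 CPM in miR-146a-/- [20.9 to 26.6]. Both WT libraries overlapped, and miR-146a-/- was the lowest of the 4. Thinned shares were 9.97% in young WT [7.04 to 13.6], 6.66% in WT [5.35 to 8.18], 4.01% for miR-146a-/- [3.07 to 5.13] and 15.4% for DKO [13.4 to 17.5], and unthinned shares 18.8%, 20.4%, 12.3% and 39.4%. In patrolling monocytes, where the level was among the lowest, thinned shares were 0 of 74 cells (4.05% at a floor of 3 counts, not an exact limit), 0.806%, 0.448% and 1.55%, at median depths of 7130.5, 9957, 6823 and 5683 UMIs. The PD-1+ CD8 shares were above these in every library. The log2 ratios were -0.18 for WT over young [-0.46 to 0.13], -0.76 for miR-146a-/- over WT [-0.99 to -0.53], 1.97 for DKO over miR-146a-/- [1.77 to 2.18] and 1.22 for DKO over WT [1.04 to 1.39].

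**Figure D1:**
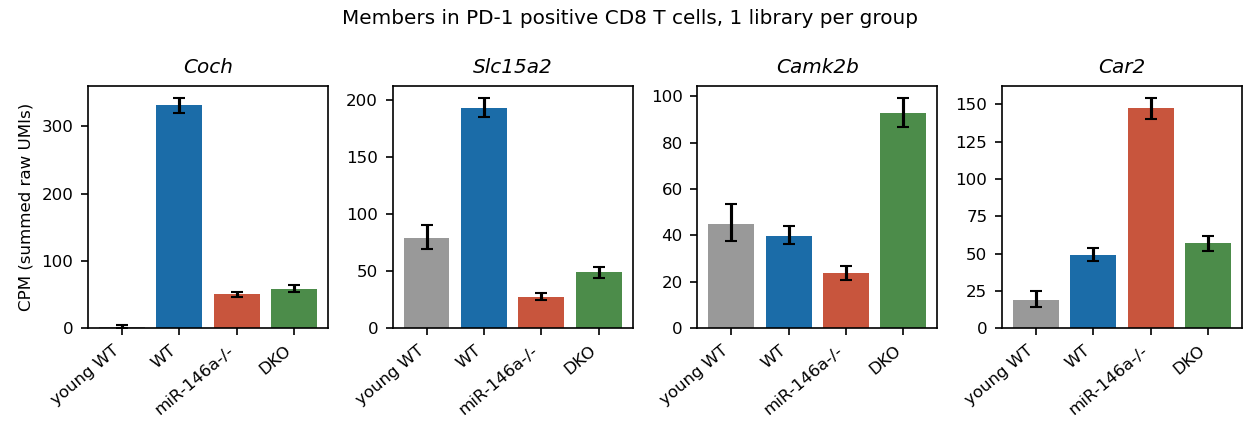
CPM of Coch, Slc15a2, Camk2b and Car2 in PD-1+ CD8 T cells of each library, with exact 95% intervals of counting error. WT is the highest library for Coch and Slc15a2, miR-146a-/- for Car2 and DKO for Camk2b.

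All 4 genes passed 20 UMIs in at least 1 library of every comparison. In WT over young, 3 of them were at least 2-fold higher and 0 lower, where 4.36% of 10726 genes were higher and 4.07% lower. In miR-146a-/- over WT, 1 was higher and 2 lower, beside 3.0% and 3.61% of 11111 genes. In DKO over miR-146a-/-, 1 was higher and 1 lower, beside 2.19% and 1.84% of 10992 genes. For DKO over WT the counts were 1 higher and 2 lower, beside 2.36% and 2.55% of 10931 genes. These counts depended on the most used Trbv segment of each library. Without it, Slc15a2 and Car2 in WT over young were under 2-fold. So was Car2 in miR-146a-/- over WT and in DKO over miR-146a-/-, where Coch was past 2-fold lower instead. The rule chose the genes on these contrasts, so nothing is read from the counts. PD-1- non-naive CD8 T cells are other cells of the same libraries, and they share those libraries with the rule. There the counts past 2-fold were 1 of 4 for WT over young (2.87% of all genes, either direction), 2 of 4 for miR-146a-/- over WT (3.56%), 2 of 4 for DKO over miR-146a-/- (2.02%), of which Coch (1.15, 21 against 9 UMIs) turned to -0.071 without the most used Trbv segment, and 3 of 4 for DKO over WT (3.59%).

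The rule gave no threshold, and other genes had ratios as large or larger, though few did for Coch. Ranked without receptor segment, ribosomal and mitochondrial genes, Coch was number 3 of 10535 genes in WT over young. Gcg (1010 UMIs in 40 cells of WT and 0 in young WT) and Hba-a1 (251 UMIs in 6 cells) were above it, and Trpm1, Hba-a2 and Spp1 (2038 against 6 UMIs) followed. Slc15a2 in miR-146a-/- over WT was number 10870 of 10895, between Klf4, Cd5l and Cdkn1a above, with Cdkn1a at -2.80, and Gm5149, Nebl and Sh3gl3 below. Camk2b in DKO over miR-146a-/- was number 38 of 10780, between Cd5l, Gm46620 and Gm47283 (2.01) above and Rapgef5 (1.97), C030037D09Rik and Egfl7 below. Car2 in miR-146a-/- over WT was number 87 of 10895, between Hba-a2, Gm13307 and Sept4 (1.58) above and Gm15987, Prxl2a and B3galt5 (1.56) below.

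UMIs of a gene can sit in few cells or in many. In WT, 728 of 1275 PD-1+ CD8 T cells had Coch, 424 of them with 3 or more UMIs, and the highest cell had 28. The top 1% of cells held 8.15% of Coch UMIs in WT, 26.5% for miR-146a-/- and 24.6% for DKO. For Slc15a2 the top 1%, ranked for each gene on its own, held 6.11%, 24.8% and 16.5%, for Car2 19.2%, 10.5% and 24.0%, and for Camk2b 15.6%, 18.9% and 12.8%. In young WT the top 1% held 100% of the 7 Coch UMIs, 11.4% for Slc15a2, 29.1% for Car2 and 17.8% for Camk2b. This share falls with the level by counting alone, so it is not compared between libraries.

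Receptor segments group cells that may descend from a common T cell, although a segment is not a clone. By the Trbv segment with the most UMIs in a cell, the most used segment was Trbv14 in young WT (83 of 344 called cells, 24.1%), Trbv17 in WT (423 of 1244, 34.0%), Trbv13-3 in miR-146a-/- (453 of 1486, 30.5%) and Trbv16 in DKO (405 of 1236, 32.8%). A different segment thus led in each library. In WT, the thinned share with Coch was 53.1% among Trbv17 cells [48.2 to 58.0], 49.3% among Trbv1 cells [43.2 to 55.3], 35.3% among Trbv5 cells and 22.0% among Trbv13-2 cells, but 5.77% among Trbv29 cells [1.21 to 15.9] and 3.33% among Trbv19 cells [0.0844 to 17.2]. In DKO, Trbv16 cells had 17.8% [14.2 to 21.9] and held 73.7% of Coch UMIs, and no other segment with at least 30 cells was above 6.02%. In miR-146a-/-, Trbv29 cells led with 22.2% [16.3 to 29.0], against 6.24% among the more numerous Trbv13-3 cells.

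Car2 in miR-146a-/- was at 343 CPM in Trbv13-3 cells and at 69.1 CPM in the other called cells, with thinned shares of 40.8% [36.2 to 45.5] and 10.0%. These cells held 66.7% of Car2 UMIs. Slc15a2 was low in the Trbv13-3 cells, with 0.223% [0.00564 to 1.23] against 13.5% of Trbv5 cells [5.59 to 25.8]. The order was not opposite over all segments. Trbv13-2 cells had 20.5% for Car2 and 6.56% for Slc15a2, and Trbv14 cells had 2.63% and 0%. In DKO as well, the most used segment was low in Slc15a2, with 1.98% of Trbv16 cells [0.857 to 3.85] against 26.8% of Trbv2 and 26.6% of Trbv3 cells. The same held in young WT, with 1.20% of Trbv14 cells against 20.2% of the other called cells. In WT, Slc15a2 was spread over most segments, from 24.1% of Trbv5 to 40.9% of Trbv13-2 cells, with Trbv29 at 5.77%. Camk2b in DKO was seen under every segment of at least 30 cells, from 5.71% of Trbv17 cells to 21.7% of Trbv13-3 cells, and 19.3% of Trbv16 cells. In WT, Camk2b was at 0.752% of Trbv5 cells and 11.6% of Trbv1 cells.

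**Figure D2:**
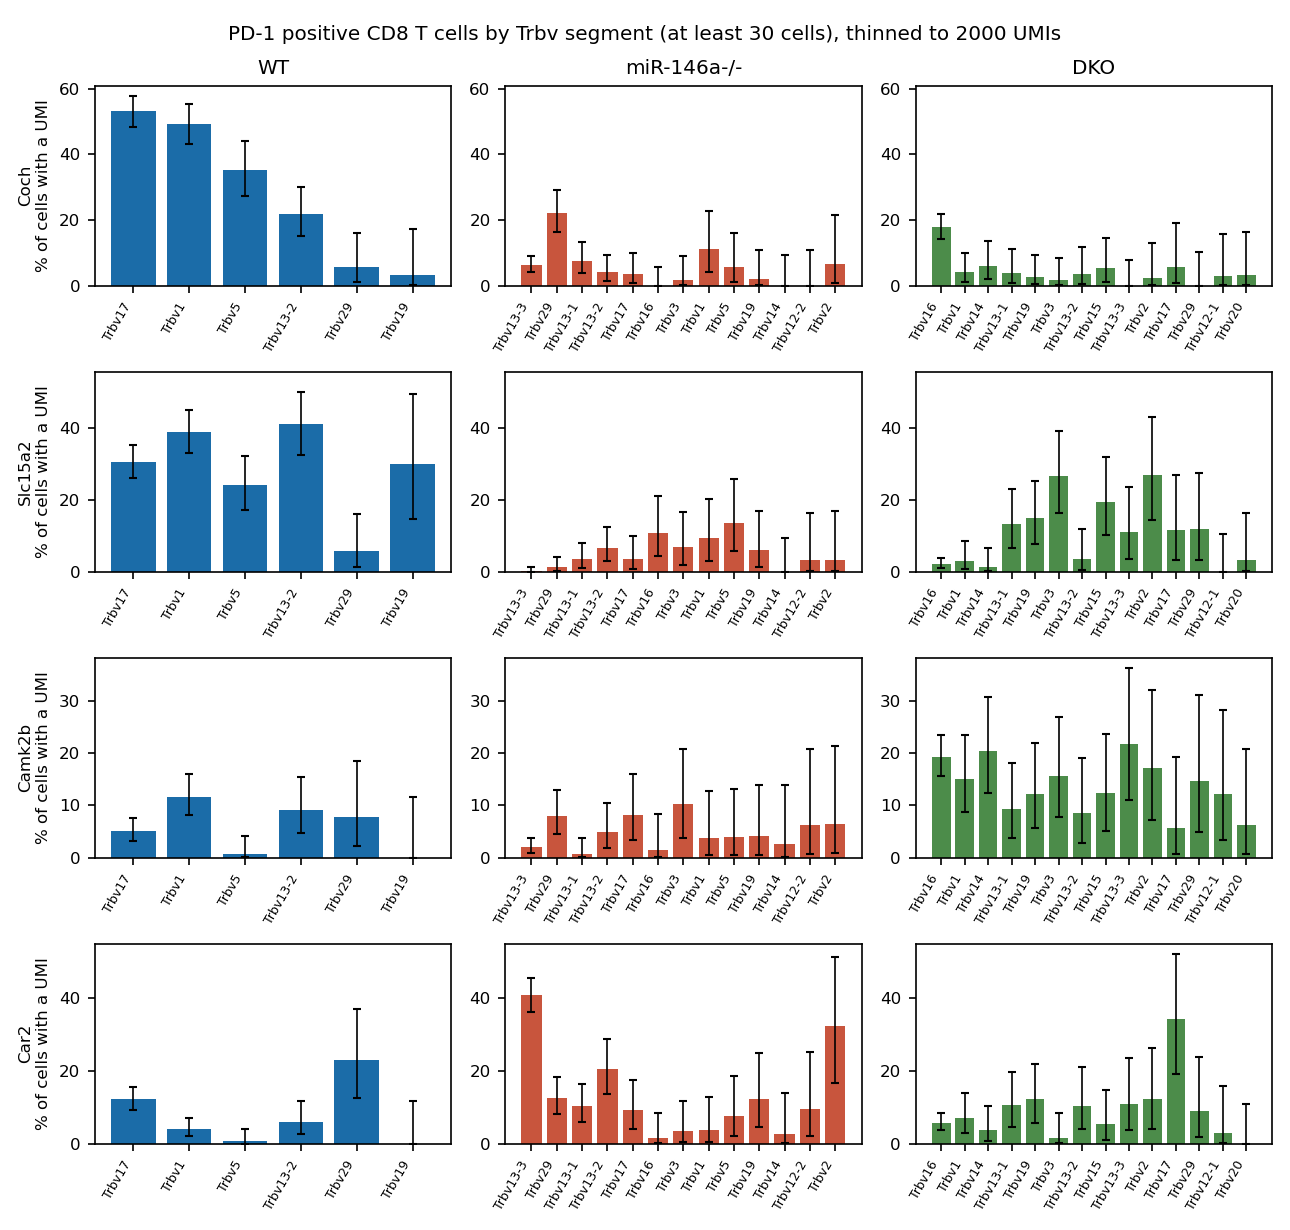
Thinned share of PD-1+ CD8 T cells with a UMI of each gene by Trbv segment in the DEN-CDHFD–treated libraries, for segments with at least 30 cells, with exact 95% intervals. Coch in WT, Car2 in miR-146a-/- and Slc15a2 in miR-146a-/- and DKO differ between segments, while Camk2b in DKO lies between 5.71% and 21.7%. Camk2b in WT is at 0.752% of Trbv5 [0.0190 to 4.12] and 11.6% of Trbv1 cells [8.07 to 16.0]. Car2 in DKO is at 34.3% of Trbv17 cells [19.1 to 52.2].

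Pairs of Trbv and Trav segments, examined after seeing the data, narrowed these groups. In WT, 375 cells had Trbv17 with Trav8d-2, of which 52.9% had Coch after thinning, and 153 had Trbv1 with Trav16, of which 54.9% did. Trbv29 with Trav12-3 (35 cells) had 8.82%. In miR-146a-/-, 60 cells with Trbv29 and Trav4-4-dv10 had Coch at 40% [27.6 to 53.5] and 0 Slc15a2 UMIs, and 44 cells with Trbv13-3 and Trav5-4 had Car2 at 63.6%. In DKO, 58 cells with Trbv16 and Trav13-4-dv7 had Coch at 32.8% [21.0 to 46.3], and 28 cells with Trbv15 and Trav12-2 had Slc15a2 at 32.1%. Levels thus differed from pair to pair within a library by more than counting error.

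Because of this, ratios were also taken without the most used Trbv segment of each library, which left 274, 852, 1054 and 856 cells. Coch in DKO over miR-146a-/- then changed sign, from 0.23 to -1.09, and in DKO over WT it moved from -2.49 to -3.42. Car2 in DKO over miR-146a-/- moved from -1.37 to -0.12, with an interval covering 0, in miR-146a-/- over WT from 1.58 to 0.98, and in DKO over WT from 0.21 to 0.86. The other values without that segment kept their direction. Car2 in WT over young moved from 1.35 to 0.89 and Slc15a2 from 1.28 to 1.00 (0.9985), both under 2-fold, as was Car2 in miR-146a-/- over WT. Coch was 6.47 in WT over young and -2.33 in miR-146a-/- over WT. Slc15a2 was -2.40, 0.81 and -1.58 in the order of the next contrasts, and Camk2b was -0.33, -0.58, 1.58 and 1.00 over the 4 contrasts. The values of Coch and Car2 between the knockouts thus depended on whether these segments were counted. A different segment was left out in each library, and the same segment also differed between libraries, with Car2 in Trbv13-3 cells at 343 CPM for miR-146a-/- and 36.1 CPM for DKO (46 cells).

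Cells with UMIs of a pair of genes were counted beside the product of the single shares, in whole cells and, since deeper cells have more UMIs of any gene, in cells thinned to 2000 UMIs. In WT, 509 cells had Coch and Slc15a2, against a product of 461 (thinned 155 against 139), and 192 had Slc15a2 and Camk2b, against 165 (30 against 25.8). In miR-146a-/-, 7 cells had Coch and Slc15a2 against 19.2 (2 against 3.71), 27 had Slc15a2 and Car2 against 55.4 (4 against 10.6), 93 had Coch and Car2 against 71.3 (25 against 19.5), and 27 had Slc15a2 and Camk2b against 18.4 (2 against 2.21). Cells with Coch in WT were deeper than the rest, with medians of 7236 and 6362 UMIs. Before thinning, the products for Coch with Slc15a2 lay outside the counting intervals of the cells with both, 466 to 555 in WT and 2.81 to 14.4 in miR-146a-/-. After thinning the counts were within counting error of the product in both libraries, so no link is read from this pair. For Slc15a2 with Car2 in miR-146a-/-, the product lay above the counting interval of the cells with both, 17.8 to 39.3, and also after thinning (4 cells, 1.09 to 10.2, against 10.6), the only pair outside after thinning in any library. In DKO, 25 cells had Coch and Slc15a2 against 34.0 (3 against 8.05), 97 had Camk2b and Car2 against 80.4 (18 against 14.2), and 47 had Slc15a2 and Car2 against 36.9, a pair whose order turned after thinning (4 against 7.26).

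The cells that carried each gene were compared with the remaining PD-1+ CD8 T cells of the same library over lists of state genes, with a gene counted when its interval lay off 0. Abundant genes have narrower intervals, so the shares of all genes given beside the counts are a rough guide. In WT, cells with Coch were lower in 7 of 7 memory or progenitor genes (median log2 ratio -1.21), with Tcf7 at 26.0 CPM against 88.7 CPM. They were higher in 5 of 7 inhibitory receptor genes and lower in 2, with Lag3 at 755 CPM against 330.3 CPM and Tigit at 951 CPM against 496 CPM among the higher. Of 10013 genes in that comparison 10.5% were higher and 14.2% lower. In miR-146a-/- the cells with Coch were lower in 5 of 7 memory genes (-1.51) and higher in 6 of 7 inhibitory receptor genes, beside 6.86% of all genes higher and 7.17% lower. In DKO, memory genes were 2 above and 2 below, and inhibitory receptor genes 4 above and 1 below, beside 7.81% and 6.44%. Cells with Coch thus had fewer memory transcripts in WT and in miR-146a-/-.

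Cells with Slc15a2 differed little from the rest in memory genes in WT, where 0 of 7 were above and 1 below (5.43% and 6.43% of all genes). In miR-146a-/-, where few cells had it, they were higher in 5 of 7 memory genes (1.58), with Il7r at 161 CPM against 42.7 CPM, beside 9.10% of all genes higher and 8.03% lower. In DKO, 2 memory genes were above and 1 below (4.51% and 5.82%). Inhibitory receptor genes were 0 above and 5 below in young WT (-0.43), 4 and 0 in WT (0.15), 0 and 7 in miR-146a-/- (-0.64), and 1 and 0 in DKO (-0.00), and in young WT 4.68% of all genes were above and 4.36% below. NK receptor genes likewise differed in direction, with 1 above and 3 below in young WT (-0.24), 0 above and 6 below in WT (-0.67), 5 above and 0 below in miR-146a-/- (0.57), and 4 above and 0 below in DKO (0.34).

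Cells with Car2 were higher in NK receptor genes in each library, in 6 of 7 in young WT (median 0.64), 7 of 7 in WT (0.73), 6 of 7 in miR-146a-/- (0.62) and 7 of 7 in DKO (1.76). Of all genes, 4.20%, 6.99%, 14.2% and 8.35% were higher and 3.66%, 6.34%, 11.6% and 5.79% lower in these comparisons. Klrb1c was at 150.5 CPM against 58.1 CPM in young WT, 65.0 against 15.9 CPM in WT, 54.2 against 9.25 CPM in miR-146a-/- and 111 against 22.6 CPM in DKO. Memory genes went both ways in cells with Car2, with 6 above and 1 below in young WT, 1 and 1 in WT, 0 and 4 in miR-146a-/-, and 5 and 0 in DKO. Cells with Camk2b were higher in memory genes, in 4 of 7 in young WT, 5 of 7 in WT, 7 of 7 in miR-146a-/- (1.09) and 5 of 7 in DKO, with 0 below in each, beside 4.51%, 7.58%, 11.4% and 10.7% of all genes.

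Leading genes of these cells were also listed, by the largest CPM ratio. With 20 UMIs as the sole minimum, the lists were led by hemoglobin, immunoglobulin or receptor genes from 1 or a few cells, such as Igkv3-10 in WT cells with Coch, where 467 of 469 UMIs came from 1 cell. A minimum of 20 cells with the gene, set after seeing this, gave Miat (92 UMIs in 66 cells, log2 ratio 3.23), Gm12534, Syngr3 and Spp1 (2.44) for Coch in WT, and Bmerb1, Trav4-4-dv10 and Dlg2 in miR-146a-/-. For Car2 in miR-146a-/- they were Slc16a11 (3.76), Zmat4, Pdzd2, Klra7 and A930001A20Rik (3.10), in DKO Nrgn, Klrb1a and Cd200r2, and in WT Itgae (2.68), Trav12-3, Ncr1 and Klrb1c. Slc15a2 gave Palm3, Gcg and Plcl1 in WT, Aff3, Cmah and Il7r in miR-146a-/- and Trav5-1, Gm46519 and Trav15-1-dv6-1 in DKO. Camk2b gave Mki67 and Rrm2, genes of dividing cells, in miR-146a-/- and Gm20628, Rsad2 and Troap in DKO. Cd200r2 was among the 10 leading genes for Car2 in both knockouts (3.01 for miR-146a-/- and 2.75 for DKO), and Ncr1 and Klrb1c were among those of both Car2 and Camk2b in WT.

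Across the other classes, the genes parted ways. For each gene, ranks are among the named classes of at least 50 cells, so T and myeloid mixed cells and unclassed cells have none. In WT, PD-1+ CD8 T cells held 3362 of the 5840 Coch UMIs of all kept cells, and much of the rest lay in cells without a rank. Coch was highest in PD-1+ CD8 T cells in each library, although in young WT its interval overlapped that of conventional CD4 T cells, the next class (0.428 CPM). Among the ranked classes of WT, PD-1- non-naive CD8 T cells came next with 41.1 CPM. Conventional CD4 T cells with 30.9 CPM, whose interval overlapped theirs, and other T cells with 16.8 CPM followed. In the knockouts, conventional CD4 T cells were next, with 24.6 CPM for miR-146a-/- and 27.1 CPM for DKO, while PD-1- non-naive CD8 T cells had 2.88 and 6.58 CPM. Thinned shares of conventional CD4 T cells with Coch were 2.36% in WT, 2.42% for miR-146a-/- and 3.32% for DKO, so few of these cells carried it. In PD-1- non-naive CD8 T cells, Coch had 116 UMIs in WT and 0 of 568 cells in young WT, which is 49.6-fold higher against a floor of 3 counts. That value is not a limit, and the exact lower limit of the log2 ratio lay below it, at 5.31. Its ratio of miR-146a-/- over WT there was -3.76 [-5.00 to -2.86], but in conventional CD4 T cells it was -0.33 [-0.86 to 0.22]. Other T cells were lower too, at -1.32 in miR-146a-/- over WT and -0.50 in DKO over WT, the latter turning to 0.085 under a lower upper limit on detected genes. The fall in miR-146a-/- was thus seen in PD-1+ CD8 T cells, PD-1- non-naive CD8 T cells and other T cells. It was not detectable at this depth in conventional CD4 T cells. Naive-like CD8 T cells had 3 UMIs in WT and 1 in miR-146a-/-, too few to read a ratio.

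Slc15a2 had a wider distribution. WT PD-1+ CD8 T cells were the highest class of their library with 193 CPM, followed by gamma-delta T cells with 160 CPM [130.3 to 194], which overlapped, and B cells with 142 CPM. In young WT, B cells led with 140.3 CPM, in miR-146a-/- conventional CD4 T cells with 70.2 CPM and in DKO regulatory T cells with 94.5 CPM, and PD-1+ CD8 T cells were number 12 of 16, 11 of 18 and 7 of 19 classes. The ratio of miR-146a-/- over WT was below 0 with its interval in 15 of 15 other classes, from -3.20 in other myeloid cells to -0.48 in conventional CD4 T cells (median -1.35). The ratio of DKO over WT was below 0 in 16 of 16 (median -1.28). Slc15a2 was therefore lower in both knockout libraries across lymphoid and myeloid classes and not in CD8 T cells alone. WT over young differed, with 6 of 14 classes above 0, 1 below (NKT-like cells, -0.44) and 7 covering 0, and cDC1, 1 of the 6, turned to -0.28 under a lower upper limit on detected genes.

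Camk2b was highest in pDC in each library, at 128 CPM in young WT, 126 CPM in WT, 122 CPM for miR-146a-/- and 271 CPM for DKO, although its interval overlapped that of the next class in young WT and DKO (regulatory T cells) and in WT (B cells). PD-1+ CD8 T cells were number 11 in order in every library. In DKO over miR-146a-/-, 15 of 16 other classes with 20 UMIs had a ratio and interval above 0 (median 1.58), the exception being C1q-high macrophages (0.71, interval covering 0). In DKO over WT, 14 of 16 were above 0 (median 1.02), other myeloid cells covered it, and classical monocytes were at -0.53. Under a lower upper limit on detected genes, classical monocytes turned to 0.06 and cDC1, among the 14, to -0.64, and with the mean over single cells patrolling monocytes turned to -0.27. B cells had 74.5, 98.5, 85.2 and 194 CPM and ILC1 67.5, 98.4, 70.0 and 225 CPM in the order young WT, WT, miR-146a-/- and DKO. The high level in DKO was thus common to most classes.

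Car2 was highest in NK cells, with 206, 328, 303 and 353 CPM, and then in ILC1, with 137, 261, 165 and 189 CPM, in the same order of libraries. PD-1+ CD8 T cells of miR-146a-/- were the next class of that library, and their interval [140.4 to 155] overlapped that of ILC1 [151 to 181]. In other libraries this class was number 7 or 8. In miR-146a-/- over WT, 12 other classes had 20 UMIs, of which 3 were above 0 (conventional CD4 T cells, other T cells and cDC1), 6 below and 3 covering 0. Of the 6, naive-like CD8 T cells turned to 0.28 with at most 1 UMI per cell. Other myeloid cells turned to 0.031 with a T-cell marker sum of at least 1. NK cells had a ratio of -0.11 [-0.22 to -0.01] and PD-1- non-naive CD8 T cells 0.16 [-0.19 to 0.52]. Conventional CD4 T cells had the highest ratio of the other classes, 2.49 (54 against 5 UMIs). A rise of Car2 in miR-146a-/- was thus not seen in NK cells and not detected in the neighbouring CD8 class. It was not confined to PD-1+ CD8 T cells. As a working name for the 4, CD8 genes fits Coch in so far as PD-1+ CD8 T cells were its highest ranked class. In both knockouts, though, conventional CD4 T cells were above the other CD8 classes. Slc15a2, Camk2b and Car2 were as high or higher in other classes in most libraries.

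**Figure D3:**
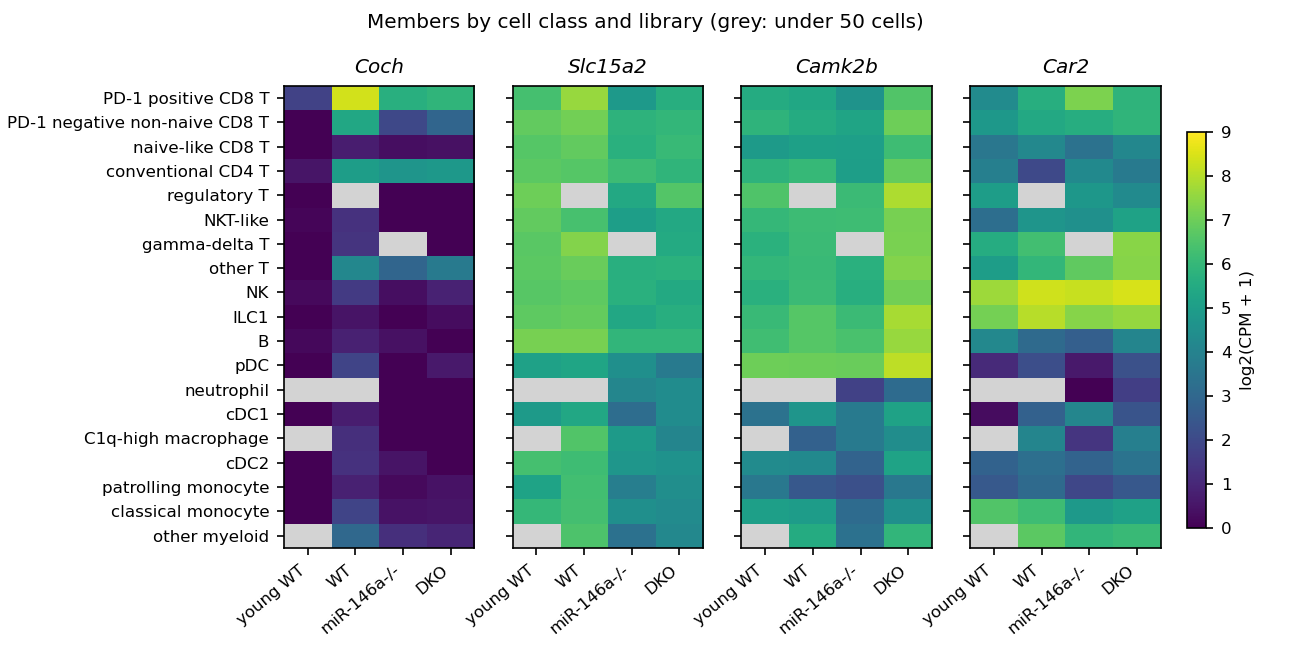
CPM of each gene by named marker-gated cell class and library, on a log scale, for classes of at least 50 cells. Coch is highest in PD-1+ CD8 T cells, Camk2b in pDC and Car2 in NK cells, with intervals that overlap the next class for Coch in young WT and for Camk2b in all libraries but miR-146a-/-.

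**Figure D4:**
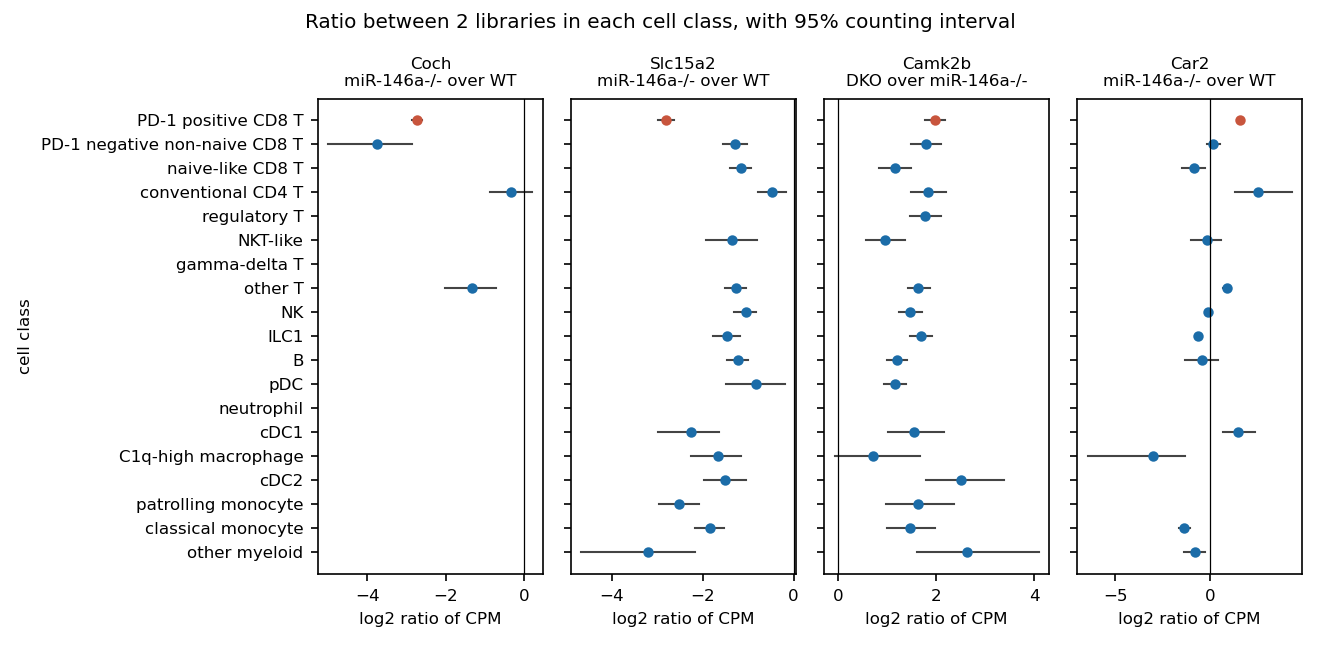
Log2 ratios between libraries for each gene and class with at least 50 cells in both libraries, with exact 95% intervals. Slc15a2 in miR-146a-/- over WT is below 0 in each of the 15 other classes with 20 UMIs, and Camk2b in DKO over miR-146a-/- is above 0 in 15 of 16.

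Likeness of pattern was measured as Pearson r on log2(CPM + 10) over 66 points, each 1 class in 1 library, from 21 classes and 4 libraries that the points share. Coch was most like Perp (r = 0.87), Adgrg1 (0.86) and Clgn (0.85). Slc15a2 was most like Rlim and Gm9725 (both 0.84) and Ppp1r15a (0.83), Camk2b most like Trp53i11 (0.79), Rabgap1l (0.78) and Apobec3 (0.77), and Car2 most like Adamts14 (0.90), Gm12596 (0.89) and Klrb1a (0.89). Among the 4 genes themselves r was at most 0.31, for Coch and Slc15a2. Over classes and libraries the 4 thus did not follow a common pattern.

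Relatives of each gene were followed in PD-1+ CD8 T cells from lists of the same families. Of 5 other LCCL-domain genes, 1 passed 20 UMIs (Dcbld2), and 0 were past 2-fold in any contrast. Of 4 other peptide and histidine transporters, 1 passed, Slc15a4, at 16.4 CPM in young WT, 17.1 in WT, 18.0 for miR-146a-/- and 18.5 for DKO. Of 13 calcium/calmodulin kinases and inhibitors 7 passed, and Camk2n1, an inhibitor of CaMKII, was past 2-fold, at 64.5, 186, 149 and 121 CPM (1.53 for WT over young). Camk2d, a sister subunit, was at 95.9, 75.5, 87.1 and 84.7 CPM. Of 15 other carbonic anhydrases 2 passed, Car5b at 14.3, 27.5, 13.8 and 17.5 CPM and Car7, and 0 were past 2-fold. In WT over young, 4.36% of all genes were higher and 4.07% lower, and smaller shares in the other contrasts, so little is read from 11 family genes.

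State lists moved between libraries too, and their part in the 4 genes' ratios was not tested. In WT over young, 7 of 7 memory or progenitor genes were at least 2-fold lower (median -1.78, beside -0.03 over all genes), 4 of 7 NK receptor genes were lower (-1.25), 4 of 7 inhibitory receptor genes were higher and 1 lower (1.01), 3 of 6 age-associated genes higher (0.88), 2 of 6 cytotoxic genes higher (0.90) and 2 of 6 residency genes lower (-0.65), beside 4.36% of all genes higher and 4.07% lower. In miR-146a-/- over WT, 2 of 7 inhibitory receptor genes were higher (Cd244a and Cd160) and 1 lower (Havcr2), 1 memory gene (Ccr7) and 1 residency gene (Itgae) were lower, and the other lists had 0 past 2-fold, beside 3.0% and 3.61% of all genes. In DKO over miR-146a-/-, Ccl5, Lag3 and Gzma were lower and Ccr7 and Itgae higher (2.19% of all genes higher and 1.84% lower). In DKO over WT, Cd160 was higher and Ccl5, Lag3 and Havcr2 lower (2.36% and 2.55%). More genes of these lists were thus past 2-fold in WT over young than in the other contrasts.

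Markers of other cells were summed in PD-1+ CD8 T cells, since free RNA or attached cells could add UMIs. For 6 erythroid genes, of which 1, 5, 6 and 5 had a UMI in young WT, WT, miR-146a-/- and DKO, the sums were 0.349, 48.8, 352 and 444 CPM. Hba-a1 was the most abundant in WT and Hbb-bs in both knockouts, while Car1 was at 0 in all libraries but miR-146a-/-. Yet 94.9%, 98.6% and 99.3% of these UMIs sat in 1 cell of WT, miR-146a-/- and DKO. Car2 is also a red-cell gene, and leaving out the 0, 1, 10 and 3 cells with at least 2 erythroid UMIs gave a Car2 ratio of 1.57 for miR-146a-/- over WT, beside 1.58 with them. Hepatocyte genes (4 to 5 of 5 with a UMI, led by Alb) summed to 6.27, 14.0, 6.59 and 8.77 CPM, with Serpina1a at 0 in young WT. Endothelial genes (3 to 4 of 4) summed to 10.8, 5.03, 1.43 and 5.70 CPM, led by Clec4g or, in miR-146a-/-, Stab2, with Kdr at 0 there. Stellate or fibroblast genes (1 to 3 of 4) summed to at most 1.03 CPM, led by Lrat in young WT and Dcn in the others, with Col3a1 at 0 throughout. Of the cholangiocyte genes Krt7, Krt19 and Sox9 were at 0, and Epcam alone had 9.41, 26.7, 50.9 and 19.2 CPM. Apart from the erythroid cells, the part of these lists in the ratios was not tested.

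Droplets with fewer than 600 detected genes, left out above, were read separately. What they hold, red cells among other things, was not tested. There were 344 in young WT, 154 in WT, 160 for miR-146a-/- and 425 for DKO. Car2 in them was at 156, 595, 1370 and 560.3 CPM, Slc15a2 at 130.3, 51.4, 17.7 and 27.7 CPM, Camk2b at 44.7, 14.7, 8.84 and 122 CPM, and Coch at 0, 22.0, 4.42 and 2.77 CPM. Hbb-bs was at 79548, 61016, 261090 and 73645 CPM in the same droplets. Car2 was thus highest in miR-146a-/- there as in PD-1+ CD8 T cells, and its part in the ratios was not tested.

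The genes lie on different chromosomes, given here in GRCm38 by GENCODE. Coch (ENSMUSG00000020953) is at chr12:51593341-51605771 on the plus strand, Slc15a2 (ENSMUSG00000022899) at chr16:36750177-36784962 on the minus strand, Camk2b (ENSMUSG00000057897) at chr11:5969644-6066362 on the minus strand and Car2 (ENSMUSG00000027562) at chr3:14886273-14900770 on the plus strand. Camk2b is on the chromosome of both deleted genes, 37.4 Mb from the microRNA and 77.6 Mb from Ccl5. Genes starting within 500 kb were read in the same cells. Of 8 such genes around Coch, 7 had 20 UMIs and 0 were past 2-fold in any contrast. Of 26 around Camk2b, 18 had 20 UMIs, and 1, Gm11973, was past 2-fold (1.21 in miR-146a-/- over WT). Of 17 around Slc15a2, 7 had 20 UMIs, and in miR-146a-/- over WT Polq (-1.43) and Cd86 (-1.04) were lower in PD-1+ CD8 T cells, and Eaf2 (-2.43), Polq (-1.96), Ildr1 (-1.87) and Cd86 (-1.20) were lower in B cells. Polq was higher in DKO over miR-146a-/- in PD-1+ CD8 T cells (1.21), and Ildr1 (-1.85), Eaf2 (-1.85) and Polq (-1.26) were lower in DKO over WT in B cells. Of 10 around Car2, 4 had 20 UMIs in miR-146a-/- over WT. There A930001A20Rik, a long noncoding RNA 84.9 kb from the start of Car2, had 0, 10, 59 and 5 UMIs in young WT, WT, miR-146a-/- and DKO (2.36 for miR-146a-/- over WT and -3.08 for DKO over miR-146a-/-). In B cells, E2f5 near Car2 was at -1.0 in miR-146a-/- over WT (19 against 64 UMIs) and 1.0 in DKO over miR-146a-/- (58 against 19 UMIs), where Car2 itself was at 1.48, and in PD-1+ CD8 T cells E2f5 was at -0.04 and 0.07 in the same contrasts. Car13 in B cells was at 1.30 in WT over young and -1.39 in DKO over WT. Beside these counts, 3.0% of all genes were higher and 3.61% lower in PD-1+ CD8 T cells in miR-146a-/- over WT, and 1.67% and 4.62% of 10006 genes in B cells. In DKO over miR-146a-/- the shares were 2.19% and 1.84%, and 1.88% and 1.33% in B cells. In B cells they were 1.98% and 1.59% in WT over young and 1.32% and 3.69% in DKO over WT. Around Slc15a2 in B cells, 4 of 7 genes were at least 2-fold lower in miR-146a-/- over WT, beside 4.62% of all genes. In DKO over WT 3 of 7 were, beside 3.69%. Slc15a2 itself was at 142 CPM in B cells of WT, 60.4 for miR-146a-/- and 60.2 for DKO. These counts are small, and whether neighbours move with the 4 genes was not tested.

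Promoter entries in RefSeq (GRCm38.p6), 250 bases before to 50 after the start, were matched for 3 of 4 genes, Coch, Slc15a2 and Camk2b. Those of Coch (chr12:51593091-51593390, plus strand) and Slc15a2 (chr16:36784913-36785212, minus strand) are shown because both genes were highest in WT and lower in both knockouts. Capitals mark matches on either strand to the NFAT core GGAAA and, in Coch, to the RUNX motif TGTGGT.
Coch: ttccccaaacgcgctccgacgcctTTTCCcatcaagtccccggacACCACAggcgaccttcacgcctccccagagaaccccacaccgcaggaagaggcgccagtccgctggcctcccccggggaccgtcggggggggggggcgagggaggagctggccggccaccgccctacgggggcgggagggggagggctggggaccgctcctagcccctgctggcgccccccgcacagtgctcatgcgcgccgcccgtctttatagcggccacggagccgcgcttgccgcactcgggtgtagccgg
Slc15a2: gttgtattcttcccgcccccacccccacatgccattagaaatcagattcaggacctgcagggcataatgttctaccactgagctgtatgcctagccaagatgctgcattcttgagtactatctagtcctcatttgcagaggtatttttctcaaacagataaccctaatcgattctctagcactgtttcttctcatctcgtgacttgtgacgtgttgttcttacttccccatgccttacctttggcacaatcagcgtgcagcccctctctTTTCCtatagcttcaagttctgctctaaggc
Motifs searched on both strands were AP-1 (TGANTCA), held by 7.81% of 32851 promoters, the NFAT core (61.3%), NF-κB (4.79%) and RUNX (16.8%). Coch had 1 NFAT core and 1 RUNX match, Slc15a2 had 1 NFAT core match, and Camk2b had no match to any of the 4 motifs. No AP-1 or NF-κB letters were in these windows. Base composition differed, with 73.7% G and C in Coch, 46.3% in Slc15a2 and 77.3% in Camk2b, beside a median of 52.7%. A match is a description of letters and not a bound site.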

How the data were processed

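The deposited files give counts, raw UMIs per gene and cell of 4 libraries, which the authors made with Cell Ranger 7.0.1 by the matrix headers on the mm10 reference of 10x Genomics. The paper names another version, and whether intronic reads were counted is not given in the sources used here. Columns of other samples in these files numbered 0. Cells with 600 to 6000 detected genes and at most 5% mitochondrial UMIs were kept (10283 in young WT, 8329 in WT, 7824 for miR-146a-/- and 9850 for DKO, with median depths of 6782, 8210, 7910 and 7558 UMIs) and placed by marker UMIs in 20 named classes, T and myeloid mixed cells and unclassed cells. No doublet caller was run. The upper limit on detected genes and the marker limits stood in for it, and mixed cells, 5.31% of kept cells in young WT, 17.8% in WT, 12.3% for miR-146a-/- and 11.8% for DKO, were left out of the T-cell classes. UMIs were summed per class and library and given as CPM. Ratios carry a prior of 0.5 counts. With 1 library per group no test was made. At 20 UMIs, the minimum for a gene in 1 library of a comparison, the exact interval is wide, and a floor of 3 counts was used where a count was 0. Classes needed at least 50 cells in a library.

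Genes named in the text are the 4 genes, the 3 next above and below each in rank in the comparison where its ratio was largest (mitochondrial, ribosomal and antigen receptor genes left out), written lists of families, states and other cell types, the 3 genes most alike over classes of at least 100 cells, genes starting within 500 kb, and the 10 genes with the largest ratio in cells carrying a gene, for libraries with at least 30 such cells. Neighbouring genes, segments and classes singled out within these sets were chosen after their values were seen. The 4 genes and the lists were chosen with earlier results of these data known. Alternatives changed the Pdcd1, T-cell, mixed-cell, mitochondrial and detected-gene limits, the scaling (TMM of edgeR 4.0.16 in R 4.3.3), a limit of 1 UMI per cell, the mean over single cells, the prior (5 counts), the thinning (none, 1000 UMIs, seed 2), the gene minimum (100 UMIs) and the most used Trbv segment. Leaving out erythroid cells or shared barcodes, the 20-cell minimum for leading genes and the pairs of segments were chosen after seeing the data. TMM shifted ratios in PD-1+ CD8 T cells by at most 0.07 on the log2 scale, in WT over young WT, and was applied per class. Python 3.11.15 with numpy 2.4.6, pandas 2.3.3, scipy 1.17.1 and matplotlib 3.10.9 was used, and intervals, gates and thinning were tested on simulated data.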

Additional observations from a re-analysis of the deposited data

Results flagged for a closer look

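Ratios of Car2 ran in opposite directions in PD-1+ CD8 T cells and in some other classes of the same libraries, where the counting intervals of those classes lay away from 0. Car2 was picked by its ratios in PD-1+ CD8 T cells, so these ratios are a description and nothing is supported with them. The differences between classes were not tested, and each rests on 1 library per group. In DKO over miR-146a-/-, the log2 ratio was -1.37 in PD-1+ CD8 T cells but 1.48 in B cells (77 against 18 UMIs) and 2.80 in C1q-high macrophages (46 against 2 UMIs). Without the most used Trbv segment, the PD-1+ CD8 value was -0.12 with an interval covering 0. Of 15 other classes 6 were above 0, 1 below and 8 covered it. In WT over young WT, the ratio was 1.35 in PD-1+ CD8 T cells but -2.10 in conventional CD4 T cells (5 against 65 UMIs) and -1.20 in B cells (40 against 135 UMIs), while 7 of 10 other classes were above 0 and 3 below. Among those above, naive-like CD8 T cells turned to -0.11 with at most 1 UMI per cell. Among those below, classical monocytes turned to 0.17 under a lower upper limit on detected genes. In miR-146a-/- over WT, the ratio was 1.58 in PD-1+ CD8 T cells but -3.03 in C1q-high macrophages (2 against 24 UMIs) and -1.37 in classical monocytes (160 against 284 UMIs). Of 12 other classes, 3 were above 0, 6 below and 3 covered it. Of the 6, naive-like CD8 T cells turned to 0.28 with at most 1 UMI per cell, and other myeloid cells to 0.031 with a T-cell marker sum of at least 1.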

How the results depend on the processing

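For the 16 ratios in PD-1+ CD8 T cells, 191 of 224 values under the alternatives were inside the counting interval, 31 were outside with the direction kept and 2 changed sign. Without the most used Trbv segment, Coch in DKO over miR-146a-/- turned to -1.09, Slc15a2 in miR-146a-/- over WT was -2.40, Car2 in miR-146a-/- over WT 0.98 and Camk2b in DKO over miR-146a-/- 1.58. With at most 1 UMI per cell, which lowers high levels by construction, Car2 in DKO over WT turned to -0.067, Coch in WT over young was 5.52, Slc15a2 in miR-146a-/- over WT -2.57 and Car2 in miR-146a-/- over WT 1.03. With at least 2 UMIs of Pdcd1, Slc15a2 in miR-146a-/- over WT was -3.13 and Car2 1.76, and with B-cell or myeloid marker cells kept, Car2 was 1.82.

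In the other classes, 2442 of 2633 values were inside the interval, 174 were outside and 17 changed sign. Without the most used Trbv segment, Coch in PD-1- non-naive CD8 T cells was -0.071 in DKO over miR-146a-/-. With at most 1 UMI per cell, Car2 in naive-like CD8 T cells was -0.11 in WT over young and 0.28 in miR-146a-/- over WT, in NK cells -0.023 and in other myeloid cells 0.35 in DKO over WT, and Slc15a2 in C1q-high macrophages was 0.036 in DKO over miR-146a-/-. With a lower upper limit on detected genes, which leaves fewer cells, Coch in other T cells was 0.085, Camk2b in cDC1 -0.64 and in classical monocytes 0.060 (all DKO over WT), Slc15a2 in cDC1 was -0.28 and Car2 in classical monocytes 0.17 (WT over young), and Slc15a2 in C1q-high macrophages was 1.15 (DKO over miR-146a-/-). With the mean over single cells, Camk2b was -0.27 in patrolling monocytes (DKO over WT) and 0.064 in T and myeloid mixed cells (WT over young). With a T-cell marker sum of at least 1, Car2 in other myeloid cells was 0.031 in miR-146a-/- over WT and 0.059 in DKO over WT. With mixed cells kept, Coch in other T cells was -0.50 in DKO over miR-146a-/-. Except where stated, the cause was not tested.

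With a minimum of 100 UMIs, fewer genes were tested, and genes past 2-fold numbered 214 higher and 139 lower in WT over young, 101 and 170 in miR-146a-/- over WT, 67 and 65 in DKO over miR-146a-/-, and 75 and 106 in DKO over WT, against 468 and 437, 333 and 401, 241 and 202, and 258 and 279. With TMM each count was within 1.5 times. Of 272 shares under other settings, 165 were inside their interval and 107 outside, 54 of these without thinning and 43 at 1000 UMIs, where depth sets the share. Counts of 7 UMIs for Coch in young WT limit what its ratio shows.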
